A study of Homo sapiens with 2 samples.

Results

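The genes described here encode the RAB GTPases, the largest branch of the RAS superfamily of small GTP-binding proteins. They were chosen by name: a gene entered when an array probe set was annotated to exactly 1 symbol made of RAB, a number and at most 1 letter, so that RAB-interacting proteins and the RABL genes were left out. The rule found 57 of the 19775 genes that the arrays measured by at least 1 unshared probe set, and they were covered by 138 probe sets. For each gene the probe set with the highest mean log2 intensity was taken, and it is called the brightest here.

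A RAB protein carries a lipid anchor at its C-terminus and switches between a GDP-bound form, held in the cytosol by a dissociation inhibitor, and a GTP-bound form on a membrane. Exchange factors load GTP, GTPase-activating proteins end the active state, and effectors read it, among them motor adaptors, tethers and vesicle-docking proteins. Because each RAB marks particular membranes, the set that a cell expresses is part of the identity of its organelles, and in gut epithelium the apical recycling RABs are known for sorting cargo to the brush border side.

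Expression was measured in SW620, an established human colorectal cancer cell line that was isolated from a lymph node metastasis. The comparison asks which genes depend on SOX2, a transcription factor of stem and progenitor cells. Both cultures were SW620 grown in RPMI-1640 and both carried a lentiviral short hairpin RNA, directed at SOX2 in the SOX2 knockdown and at no target in the mock knockdown. The titles of both samples end in KO although the source names speak of knockdown, and the description line of both names ECM1 and mouse liver, which the other labels contradict. No age, clone, dose or time after transduction is given in the sources used here, and whether cells were selected or cloned is not given either.

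Each group held 1 Affymetrix 3′ expression array, so there were no replicates and no tests, and precision is limited by the number of arrays. Differences are SOX2 knockdown minus mock on the log2 scale, and genes were counted past a fixed limit of 2-fold. The deposited values are linear intensities without a detection call. A floor was therefore set at the median of all values, an intensity of 68.5, and where the dimmer array lay under it the fold is a lower bound, taken against the floor. Differences of further probe sets are as deposited, with no bound. The only measure of spread was that between probe sets of the same gene, a pooled SD of 0.52 on the log2 scale over 27 RAB genes, which holds no variation between cultures or arrays. In a bulk culture, fewer cells that express a gene and less RNA per cell cannot be told apart.

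The brightest probe set of SOX2 read 2077 under mock and 20.9 under SOX2 knockdown, at least 30.3-fold lower. Another probe set of it went from 333 to 120, and 2 of its 4 probe sets never reached the floor. All 8 epithelial markers checked reached the floor on at least 1 array, EPCAM at 8910 and 9898 and KRT18 at 17410 and 21262. The intestinal factor CDX2 was close to the floor, at 69.2 and 116. Of 7 markers of leukocytes, endothelium and fibroblasts, PTPRC, CD3E and COL1A2 lay under the floor on both arrays. PECAM1, VWF, COL1A1 and DCN reached it with differences between -0.29 and 0.26, and their part in the results below was not tested. The microvillus protein VIL1 was the epithelial marker past 2-fold, at -1.25.

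Promoter sequences are shown for 5 RAB genes, since SOX2 is a DNA-binding protein whose family recognises short A- and T-rich cores. They are the genes with the largest differences in each direction, and RAB7B, which has a window that matches a searched core. The other windows of RAB7B and RAB30 held no match and are not printed, so the display leans towards matches. Each run is the 250 bases before a start site that RefSeq lists on GRCh38.p14, read on the gene's own strand. The windows are chr1:156060910-156061159 (plus strand) for RAB25, chr18:54717607-54717856 (plus) for the upstream start of RAB27B, chr1:205994458-205994707 (minus) for the start of RAB7B with a match, chrX:13688878-13689127 (plus) for RAB9A, and chr11:83071898-83072147 (minus) for the start of RAB30 with a match. Capitals mark the searched cores, ACAAT and ACAAAG, on either strand (ATTGT and CTTTGT).
RAB25: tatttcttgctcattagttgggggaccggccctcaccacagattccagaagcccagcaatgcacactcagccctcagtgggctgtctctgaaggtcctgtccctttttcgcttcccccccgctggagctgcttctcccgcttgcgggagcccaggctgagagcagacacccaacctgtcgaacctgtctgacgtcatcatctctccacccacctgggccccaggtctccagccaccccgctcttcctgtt
RAB27B: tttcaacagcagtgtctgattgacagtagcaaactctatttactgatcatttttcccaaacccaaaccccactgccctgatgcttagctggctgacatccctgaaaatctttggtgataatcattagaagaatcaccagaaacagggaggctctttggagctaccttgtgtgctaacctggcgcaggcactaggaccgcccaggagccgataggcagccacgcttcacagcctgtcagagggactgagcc
RAB7B: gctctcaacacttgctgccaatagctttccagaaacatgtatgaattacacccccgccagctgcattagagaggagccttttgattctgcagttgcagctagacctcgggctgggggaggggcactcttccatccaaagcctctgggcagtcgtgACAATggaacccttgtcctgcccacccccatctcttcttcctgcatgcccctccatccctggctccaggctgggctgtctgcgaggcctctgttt
RAB9A: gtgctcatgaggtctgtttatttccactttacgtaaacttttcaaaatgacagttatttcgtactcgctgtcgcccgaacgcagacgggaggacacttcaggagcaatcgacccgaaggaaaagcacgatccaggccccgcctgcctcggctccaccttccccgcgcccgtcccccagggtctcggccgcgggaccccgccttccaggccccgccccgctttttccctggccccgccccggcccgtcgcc
RAB30: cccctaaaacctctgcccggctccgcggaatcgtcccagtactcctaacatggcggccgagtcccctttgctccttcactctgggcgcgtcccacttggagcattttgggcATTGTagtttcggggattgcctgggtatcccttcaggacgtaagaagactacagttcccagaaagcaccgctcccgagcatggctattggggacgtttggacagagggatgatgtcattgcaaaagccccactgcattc

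The printed windows of RAB25, RAB27B and RAB9A hold neither core, and those of RAB7B and RAB30 hold ACAAT or its complement 1 time each. Windows were found for 45 of the 57 RAB genes, 64 windows in all, and for 9 of the 10 RAB genes past 2-fold, with none for RAB15. ACAAT was present in 12 of the 64, or 18.8%, against 24.6% of all 35116 windows of equal length. ACAAAG was present in 3, or 4.69%, against 13.7%. By gene, at least 1 core stood in a window of 12 of the 45 RAB genes, and among those past 2-fold in RAB7B and RAB30 alone. Both cores were chosen as short versions of the SOX motif, and a match is a description of letters and not a binding site. RAB windows were rich in the dinucleotide CpG, with a median of 20.5 per window against 11 over all windows. Among the printed ones RAB9A held 25, RAB30 13, RAB25 8, RAB27B 4 and RAB7B 4. RAB25 and RAB27B thus lay under the median RAB window, as RAB7B and RAB30 did. Of those not printed, RAB40B, also higher after knockdown, held 24, and RAB31, which was lower, held 40. The other unprinted windows of genes past 2-fold lay under the RAB median. RAB11A held 18, RAB3D 13, the second start of RAB27B 12, that of RAB7B 4 and the further starts of RAB30 5 and 2.

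RAB genes as a family differed in both directions. Of the 57, 49 reached the floor on at least 1 array and 45 on both. After SOX2 knockdown 10 of the 49 were past 2-fold either way, beside 15.7% of all 13609 genes that reached the floor. Higher were 7, or 14.3%, beside 8.44% of all genes: RAB25, RAB27B, RAB40B, RAB3D, RAB15, RAB11A and RAB7B. Lower were 3, or 6.12%, beside 7.29% of all genes: RAB9A, RAB30 and RAB31. RAB25, RAB27B, RAB30 and RAB31 reached the floor on 1 array alone, so their direction was fixed by the filter. The median difference over the 49 was 0.13, against -0.01 over all genes, and 29 lay above 0 and 20 below. With 1 array per group these shares describe this pair of arrays, and they do not set the family apart from other genes. At a limit of 1.5-fold 12 RAB genes were higher and 8 lower, beside 15.0% and 14.8% of all genes, and the other 29 lay within 1.5-fold.

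**Figure D1:**
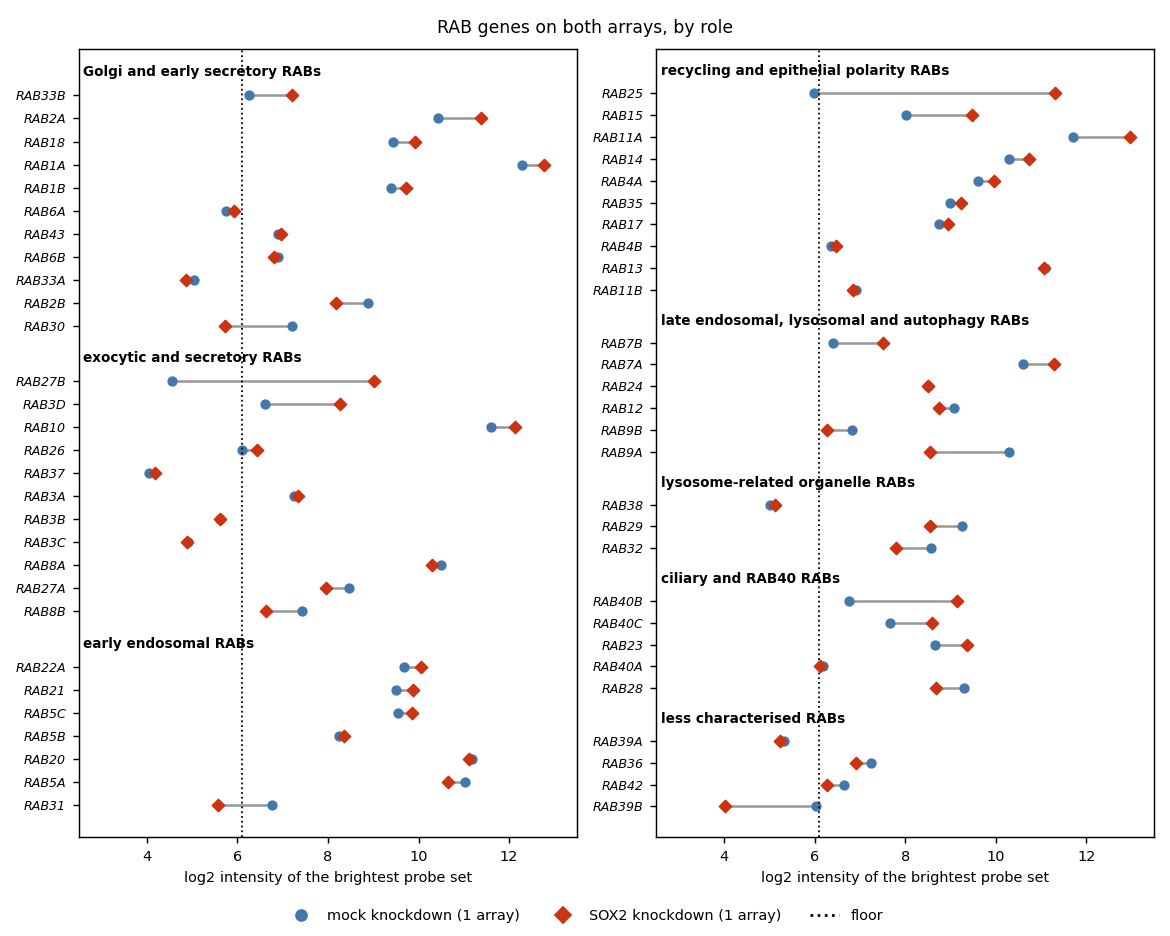
Log2 intensity of the brightest probe set of each of the 57 RAB genes on the mock array (blue circles) and the SOX2 knockdown array (red diamonds), grouped by role, with the floor as a dotted line. Each gene has 1 value per array and no error bar, and levels of different genes come from different probe sets and are not comparable. RAB25 and RAB27B show the longest lines, both crossing the floor from mock to knockdown.

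The recycling and epithelial polarity RABs, which return endocytosed cargo to the surface, held the largest deposited difference of the family, that of RAB25. Being a lower bound, like that of RAB27B, it gives no exact rank. All 10 reached the floor, 3 were at least 2-fold higher, none was 2-fold lower, beside 8.44% and 7.29% of all genes, and the group median was 0.30. RAB25, an epithelial relative of RAB11A that works at apical recycling endosomes, read 63.6 under mock and 2543 under SOX2 knockdown. The mock value lay under the floor, so RAB25 was at least 37.1-fold higher, and it was measured by a single probe set. Since RAB25 reached the floor on the knockdown array alone, its direction was fixed by the filter. RAB11A, the general RAB of the recycling endosome, went from 3332 on the mock array to 7984, or 2.40-fold higher. All 3 of its probe sets were at least 2-fold higher, with differences from 1.02 to 1.44. RAB11B, the close paralogue of RAB11A, stayed within the spread between probe sets at 121 and 115, a difference of -0.07, and a further probe set lay under the floor.

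RAB15, a RAB of early and recycling endosomes, went from 258 on the mock array to 713 on the knockdown array. Its difference was 1.46 in both of its probe sets. The remaining recycling RABs were all within 1.5-fold. RAB14, which links the trans-Golgi network with endosomes, stood at 0.45, RAB4A of the fast recycling route at 0.34, RAB35, which acts in recycling at the plasma membrane, at 0.25, RAB17, a RAB of polarised epithelia, at 0.19 and RAB4B at 0.10. RAB13, a RAB known from tight junctions, was nearly equal on both arrays, at 2188 and 2148. The group was therefore split between RAB11A, RAB25 and RAB15 on the higher side and 7 members that differed by less than 0.45 either way.

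Genes that work with the RAB11 group were mixed. Of 7 effectors of RAB11 proteins, a subset marked after the values were seen, 2 were at least 2-fold higher and 1 lower. The shares of all genes were 8.44% and 7.29%. MYO5B, the myosin that moves RAB11 and RAB25 vesicles in enterocytes, went from 699 to 1700, and its probe sets above the floor differed by 1.28 and 2.004. RAB11FIP4, an adaptor of the RAB11 family, went from 193 to 420, with all 3 probe sets above the floor between 1.12 and 1.46. RAB11FIP1, also called RCP, was lower, from 744 to 306, with probe sets between -1.28 and -0.31. The other adaptors differed by less than 2-fold, RAB11FIP5 by 0.71, RAB11FIP2 by -0.37 and RAB11FIP3 by -0.08, and the effector WDR44 by -0.17.

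Among the exocytic and secretory RABs, which carry vesicles and granules to the plasma membrane, 8 of 11 reached the floor. Of these 8, 2 were at least 2-fold higher and none was 2-fold lower, beside 8.44% and 7.29% of all genes. RAB27B, which docks secretory granules and exosome-releasing endosomes, read 23.4 under mock and 520 under SOX2 knockdown. It was at least 7.59-fold higher, since the mock value lay far under the floor. Its other 2 probe sets never reached the floor and differed by 0.17 and 0.64, so the difference rests on 1 probe set. RAB27A, its paralogue, was on the opposite side of 0 in all 5 of its probe sets, with differences from -0.72 to -0.47. The brightest of them went from 354 to 247, a difference of -0.52 that did not reach 1.5-fold.

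Effectors of RAB27 included some of the largest differences among the genes around the family. Of 8, a subset marked after the values were seen, 7 reached the floor, 3 were at least 2-fold higher and none was 2-fold lower, beside 8.44% and 7.29% of all genes. SYTL2, a synaptotagmin-like docking protein, went from 20.6 on the mock array to 484 on the knockdown array and was at least 7.06-fold higher, with 4.07 and 4.55 in its probe sets above the floor. SYTL5, of the same family, went from 38.3 to 404 and was at least 5.89-fold higher. MLPH, the adaptor between RAB27A and myosin Va on melanosomes, went from 163 to 1809, or 11.1-fold higher, in its only probe set. SYTL2 and SYTL5, like RAB27B, reached the floor on the knockdown array alone, so their direction was fixed by the filter.

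The other RAB27 effectors did not pass 2-fold in their brightest probe sets. SYTL4 differed by 0.60, SYTL3 by 0.17, SYTL1 by 0.02 and UNC13D, a granule priming factor, by -0.25, and MYRIP was under the floor on both arrays. The brightest probe set of MYO5A, the myosin that MLPH binds, differed by -0.01 near the floor, at 73.0 and 72.7. Of its 3 probe sets above the floor, however, 2 were at least 2-fold lower, the lowest at -2.92.

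RAB3D, a RAB of regulated secretion in exocrine cells, went from 98.2 on the mock array to 309 on the knockdown array in its brightest probe set, or 3.15-fold higher. A further probe set above the floor went from 94.3 to 89.7, a difference of -0.07, so the direction of RAB3D depended on the probe set. RAB3A of synaptic vesicles was near equal at 153 and 161, and RAB3B and RAB3C lay under the floor on both arrays. RAB10, which serves basolateral and insulin-regulated transport, differed by 0.53, and RAB26, a RAB of secretory granules, by 0.32 at an intensity close to the floor. RAB8B was lower, from 173 to 99.97, a difference of -0.79, and RAB8A, which acts in apical and ciliary transport, by -0.20. RAB37, of mast cell and other secretory granules, lay under the floor.

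**Figure D2:**
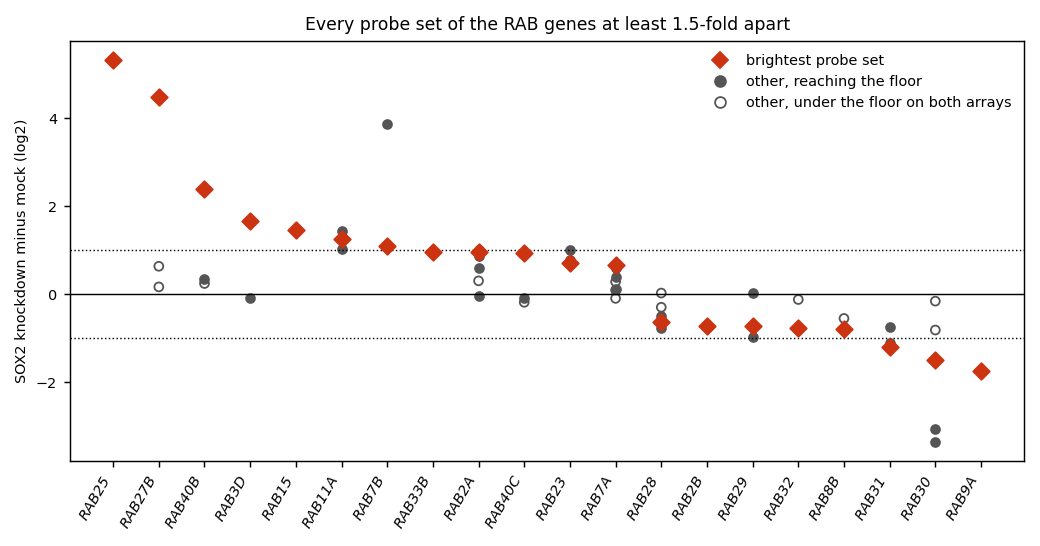
Difference between SOX2 knockdown and mock (log2) in every probe set of the 20 RAB genes whose brightest probe set differed by at least 1.5-fold, with 2-fold marked by dotted lines. Red diamonds are the brightest probe sets, filled grey circles others above the floor, and open circles probe sets under the floor on both arrays. RAB11A and RAB15 lie close together in all probe sets, while RAB3D, RAB40B and RAB7B spread widely.

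Among late endosomal, lysosomal and autophagy RABs, all 6 reached the floor. At least 2-fold higher was 1 and lower was 1, beside 8.44% and 7.29% of all genes. RAB9A, which returns mannose 6-phosphate receptors from late endosomes to the Golgi, read 1247 under mock and 375 under SOX2 knockdown. It was 3.33-fold lower in its only probe set, the largest negative difference among the brightest probe sets that reached the floor. RAB9B, its paralogue, was also lower but within 1.5-fold, from 114 to 77.2. RAB7B, a RAB between late endosomes and the trans-Golgi network, went from 84.8 to 182 in its brightest probe set, or 2.14-fold higher. Its other probe set went from 23.7 to 343, a difference of 3.86, so both were higher and their sizes differed.

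RAB7A, the main RAB of late endosomes and lysosomes, was higher by less than 2-fold, from 1560 to 2486, with its 4 probe sets above the floor between 0.13 and 0.67. RAB12, which acts in lysosomal degradation of receptors, differed by -0.33 and RAB24, linked with autophagy, by 0.01. The sign of RAB24 turned under intensity-dependent centring and under quantile normalization. Within the RAB7 exchange complex, MON1B was lower in all 3 probe sets, from 2266 to 722 in the brightest, while MON1A differed by -0.24 and CCZ1 by 0.15 near the floor. Lower values of MON1B thus stood beside a higher value of RAB7A on the same array.

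Of the 9 Golgi and early secretory RABs that reached the floor none was 2-fold higher and 1 was 2-fold lower. The shares of all genes were 8.44% and 7.29%. RAB30, a Golgi RAB, went from 147 on the mock array to 52.7 on the knockdown array in the probe set with the highest mean and was at least 2.15-fold lower. Its other probe sets above the floor went from 181 to 17.9 and from 141 to 17.0, with all 3 knockdown values under the floor, so that their sizes cannot be ranked. RAB2A and RAB2B, paralogues of the early secretory pathway, lay on opposite sides of 0. RAB2A went from 1375 to 2655, a difference of 0.95, though another of its 5 probe sets above the floor differed by -0.05. RAB2B went from 475 to 291, a difference of -0.71, in its only probe set.

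The RABs that carry most transport from the endoplasmic reticulum to the Golgi differed little. RAB1A stood at 5011 and 7001, a difference of 0.48, and RAB1B at 0.33. RAB18, of lipid droplets and the endoplasmic reticulum, stood at 0.48, RAB33B, a Golgi RAB linked with autophagy, at 0.95 in its only probe set (76.6 under mock and 148 under knockdown), RAB43 at 0.08 and RAB6B at -0.09. RAB6A, the main RAB of retrograde Golgi transport, is represented by a probe set under the floor, because its 4 other probe sets are annotated to further RAB6 genes and were left out. RAB33A lay under the floor on both arrays. In all, 11 probe sets named a RAB gene together with another symbol, among them every probe set of RAB34.

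Of the 7 early endosomal RABs, all of which reached the floor, 6 lay within 1.5-fold, as did 9553 of all 13609 genes. None was 2-fold higher and 1 was 2-fold lower, beside 8.44% and 7.29% of all genes. RAB5A, the RAB that defines early endosomes, went from 2092 to 1601, a difference of -0.39, while RAB5B stood at 0.13 and RAB5C at 0.32. RAB22A and RAB21, which act in endosomal sorting and integrin uptake, stood at 0.38 and 0.36, and RAB20 at -0.06, although another probe set of RAB21 differed by -0.70. RAB31, a relative of RAB22A, was the exception, from 109 on the mock array to 47.5 on the knockdown array. With its lower value under the floor the bound is 1.598-fold, which is under the limit of 2-fold although the deposited values differ by -1.20. All 3 of its probe sets were lower, from -1.20 to -0.75.

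Of the 5 ciliary and RAB40 RABs, all of which reached the floor, 1 was at least 2-fold higher and none was 2-fold lower. The shares of all genes were 8.44% and 7.29%. The lysosome-related and the less characterised RABs held no gene past 2-fold. RAB40B, of a subfamily with a SOCS box that recruits a ubiquitin ligase, went from 108 on the mock array to 565 on the knockdown array, or 5.25-fold higher. A further probe set above the floor went from 172 to 219, a difference of 0.34, so the size was not shared between probe sets. RAB40C went from 202 to 386 in its brightest probe set, a difference of 0.93, and differed by -0.09 in another, and RAB40A was near the floor at 72.6 and 69.9. RAB23, a negative regulator of Hedgehog signalling, went from 406 to 664 in its brightest probe set, and all 3 were higher, from 0.71 to 0.99. RAB28, a RAB of cilia and photoreceptors, went from 633 to 411, and was lower in each of its 3 probe sets above the floor, from -0.77 to -0.49.

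The lysosome-related organelle RABs that reached the floor were both lower. RAB32, needed for melanosome cargo, went from 379 to 223, a difference of -0.76, and RAB29 from 615 to 375, a difference of -0.71, though 1 of 3 probe sets of RAB29 differed by 0.03. The third of the group, RAB38, lay under the floor. HPS1 and HPS4, which together form the exchange factor of RAB32 and RAB38, differed by -0.75 and -0.62 in their brightest probe sets, each under 2-fold, though 1 of 4 probe sets of HPS1 above the floor differed by 0.11. RAB36 and RAB42 differed by -0.32 and -0.36. RAB39A lay under the floor, as did RAB39B, whose deposited values of 64.9 and 16.4 give no fold here.

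Regulators and effectors were taken from a list of 136 genes, of which 124 reached the floor. At least 2-fold higher were 18, or 14.5%, and 7, or 5.65%, were at least 2-fold lower, beside 8.44% and 7.29% of all genes. Their median was 0.15. The shares on both sides were close to those of the RAB genes themselves. RABAC1, a prenylated RAB acceptor of Golgi membranes, was the only 1 of 6 prenylation and recycling factors past 2-fold, from 556 to 1852. CHML, an escort protein for RAB prenylation, differed by -0.92, the transferase subunits RABGGTB and RABGGTA by -0.53 and -0.41, and the dissociation inhibitor GDI2 by 0.20.

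Of 35 GTPase-activating proteins 25, or 71.4%, lay above 0, beside 48.9% of all genes, and their median was 0.33. Past 2-fold were 7 on the higher side, or 20.0%, and 1 on the lower, or 2.86%, beside 8.44% and 7.29% of all genes. TBC1D4, which restrains RAB10 and its relatives in insulin-regulated transport, went from 62.2 on the mock array to 802 and was at least 11.7-fold higher, with 3.21 and 3.69 in its probe sets. GRTP1 went from 29.0 to 611 and was at least 8.91-fold higher, though another probe set differed by 0.62. The brightest probe sets of TBC1D4, GRTP1 and another of the 7 reached the floor after knockdown alone, so the filter fixed their direction. TBC1D30 differed by 2.01 and TBC1D9 by 1.69, the latter with 0.07 in another probe set. TBC1D5, which acts on RAB7A with retromer, was lower, from 871 to 351 in its brightest probe set, though another differed by only -0.30.

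Exchange factors went both ways, with a median of 0.05. Of 37, 3 were past 2-fold on the higher side and 5 on the lower, beside 8.44% and 7.29% of all genes. DENND2D, of the DENN domain family, was the highest, from 195 to 1700, and both of its probe sets were at least 2-fold higher. DENND1B, an activator of RAB35, differed by 1.68 and RAB3IP, the RAB8 activator also called Rabin8, by 1.39, while RAB8A and RAB8B were both below 0. Of the 5 probe sets of RAB3IP above the floor all were higher but only 2 passed 2-fold, with the lowest at 0.48. DENND5A was the lowest, from 1171 to 302, followed by MON1B at -1.65, TRAPPC10 at -1.39 and TRAPPC2 at -1.16, the last pair being subunits of the TRAPP tethering complexes. RIN3, which can activate RAB5 and RAB31, differed by -1.08 in its brightest probe set and by 0.01 in another.

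Of 46 effectors that reached the floor 7 were past 2-fold on the higher side and 1 on the lower. The shares of all genes were 8.44% and 7.29%, and the median of the effectors was 0.05. SYTL2, MLPH, SYTL5 and MYO5B, given above, were among those higher.

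**Figure D3:**
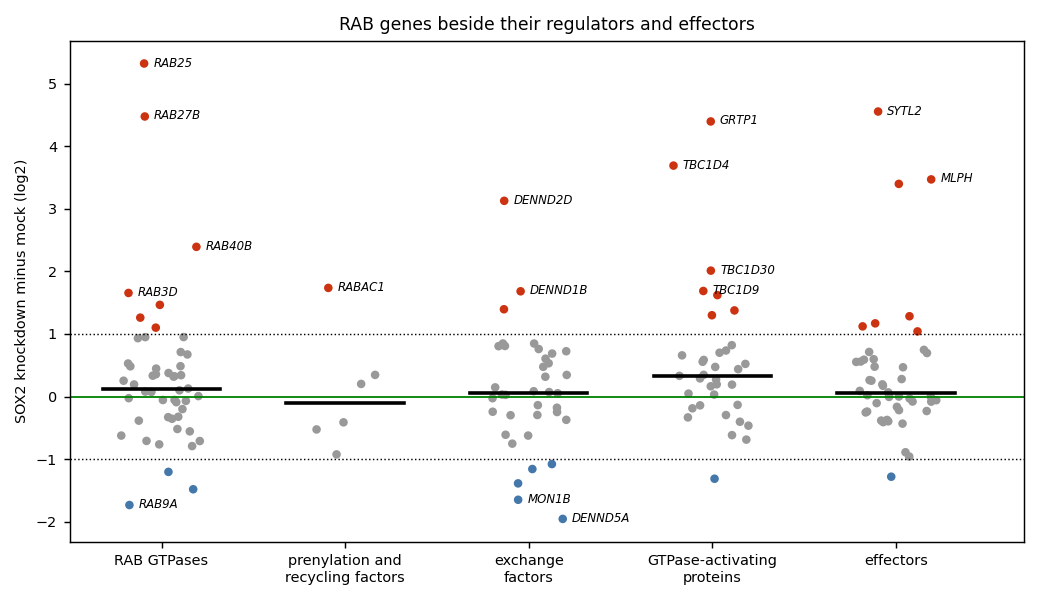
Difference between SOX2 knockdown and mock (log2) of each RAB gene and each listed regulator or effector that reached the floor, 1 point per gene, with the group median as a black bar, the median of all genes as a green line and 2-fold as dotted lines. Red and blue points are at least 2-fold higher and lower, and sideways position has no meaning. Points are values as deposited, and where 1 array lay under the floor, as for RAB25, RAB27B, SYTL2, SYTL5, GRTP1 and TBC1D4, the height is not exact and has no order.

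Position along the chromosomes was also described. For each RAB gene the 5 nearest genes above the floor on each side were taken from the RefSeq order, except for RAB40B, which had 9 neighbours in all. The neighbours of RAB25 had a median of 0.15 and a highest value of 1.16, for LMNA, so RAB25 stood far above the genes around it. Those of RAB27B had a median of 0.49 and reached 2.15 at ONECUT2, with 8 of 10 above 0 and 3 at least 2-fold higher. Of the 187 genes of its chromosome 18 above the floor, 16.6% were at least 2-fold higher, beside 8.44% of all genes. RAB31, on the same chromosome, was lower, and a link between RAB27B and its chromosome was not tested. RAB11A lay among genes of a like sign, 9 of 10, with a median of 0.35, and none of them exceeded RAB11A. Of the 10 RAB genes past 2-fold, 6 had a neighbour median on their own side of 0, while RAB15, RAB31, RAB3D and RAB7B did not. No share over all genes was computed for this count, so it sets these genes apart from no others.

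RAB9A was lower together with all 10 of its neighbours, whose median was -1.04. The adjacent gene above the floor on one side, TRAPPC2, differed by -1.16, and 5 of the 10 were at least 2-fold lower, among them ASB9 at -3.29 and PRPS2 at -2.15. RAB9A lies on chromosome X, whose 413 genes above the floor had the lowest median of 23 chromosomes, -0.23, with 17.4% at least 2-fold lower, against a median of 0.00 over the 13176 genes off chromosomes X and Y. The other X-linked RABs above the floor, RAB9B and RAB40A, differed by -0.56 and -0.06, with neighbour medians of -0.35 and -1.005. RAB33A and RAB39B, also on X, were under the floor. The difference of RAB9A and that of its chromosome cannot be told apart in these arrays. Chromosome 15 had the highest median, 0.22, and of its RAB genes RAB11A lay above that and RAB27A and RAB8B, at -0.52 and -0.79, lay below 0.

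**Figure D4:**
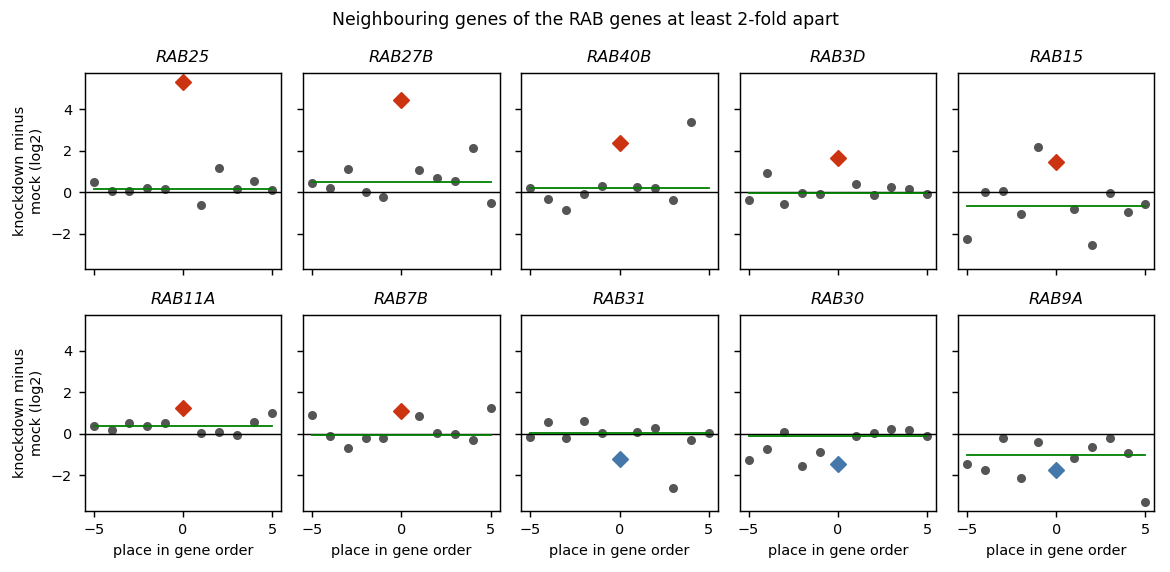
Difference between SOX2 knockdown and mock (log2) of each of the 10 RAB genes past 2-fold (diamond at place 0) and of the 5 nearest genes above the floor on each side in gene order (grey points, 9 in all for RAB40B), with the neighbours' median as a green line. Distances along the chromosome are not to scale, since only order is shown. All neighbours of RAB9A lie below 0, while those of RAB25 and RAB3D lie on both sides of 0.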

How the data were processed

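Total RNA from 1 SOX2 knockdown and 1 mock knockdown culture of SW620 was hybridised to 1 Affymetrix array each. The authors deposited 1 linear intensity for each probe set on each array, computed with RMA according to the submitters' processing notes. For RMA the version, the settings and the return to linear values are not given here. RMA equalises the distributions of arrays, so a change in total RNA cannot be seen.

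Control probe sets were left out, leaving 54613, of which 41091 carried 1 gene symbol, 1801 several and 11721 none. Symbols were checked through Entrez identifiers against a RefSeq gene table of GRCh38.p14, which changed 0. Log2 was taken with no pseudocount. The brightest probe set stood for a gene, and a gene entered when its higher value reached the floor of 68.5. RAB genes at least 1.5-fold apart were named with both values, the others by group. Of each regulator list up to 4 genes past 2-fold in each direction were named, as were partners of a RAB gene described beside it, which were chosen after their values were seen. The RAB genes and the lists were chosen with earlier results of these data known. Since each group was 1 array, no test was made. Counting past 2-fold was tested on simulated data, with planted differences beyond the limit in genes well above the floor. The simulated noise was smaller than the spread between probe sets. The test therefore says nothing of genes close to the limit or to the floor. Python 3.11.15, numpy 2.4.6, pandas 2.3.3 and matplotlib 3.10.9 were used.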

Additional observations from a re-analysis of the deposited data

How the results depend on the processing

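No paired analysis was possible because each group held 1 array. The counts of 7 RAB genes at least 2-fold higher and 3 lower, with the same genes, held under median centring, intensity-dependent centring and quantile normalization. Of all genes 8.59%, 8.48% and 8.23% were then higher and 7%, 7.11% and 7.49% lower. The deposited RMA values already had close medians, 69.0 for mock and 68.1 for SOX2 knockdown. These alternatives could therefore change little and are no independent check of the counts. The share of all genes past the limit also moved with the setting. With the mean of all probe sets 4 were higher, RAB11A, RAB15, RAB25 and RAB7B, without RAB27B, RAB3D and RAB40B. Of all genes 7.02% were higher under that setting. With the floor at the 75th percentile 1 was lower, beside 9.16% of all genes, and the median was 0.34. With the floor required on both arrays 5 were higher, without RAB25 and RAB27B, and 1 was lower. The shares of all genes were then 6.68% and 5.58%. The probe set of smallest difference gave 5 higher and 2 lower, beside 6.09% and 5.57% of all genes. A pseudocount of 32 gave 6 and 2, beside 7.3% and 5.99%. A limit of 1.5-fold gave 12 higher and 8 lower, beside 15.0% and 14.8% of all genes. A limit of 3-fold gave 4 and 1, beside 4.44% and 3.43%. The median was within 0.1 of 0.13 under every alternative but the floor at the 75th percentile. With the probe set of smallest difference RAB3D turned to -0.072. Among the 10 genes past 2-fold, 68 single-gene values under the alternatives stayed within the SD between probe sets, 9 moved further without a change of sign and 1 changed sign. Many of the 68 could hardly move. Centring and normalization shifted values little, and RAB25 and RAB9A, with 1 probe set each, kept their values under the probe set alternatives. The values that moved further were of RAB3D, RAB7B, RAB25, RAB27B, RAB31 and RAB40B. Taking dimmer values at the floor itself, an alternative chosen after seeing the data, left 7 higher and 2 lower, without RAB31. The shares of all genes were 7.85% and 6.64%. The floor limits what can be said of the 8 RAB genes under it on both arrays, and of RAB25, RAB27B, RAB30 and RAB31, under it on 1.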
